A study of Rattus norvegicus with 10 samples.

Results

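Serpins, a family of protease inhibitors and of proteins that share their fold, were followed in testes of 6-day-old rat pups. They were taken as all noncontrol probes of the array whose transcript maps to a rat gene symbol that begins with Serpin. This gave 34 genes and 38 probes, of 15154 named genes and 30367 probes. Of the 53 Serpin symbols in the gene table, the other 19 have no probe matched by transcript and were not analysed here. Gene expression was measured on 10 one-colour rat arrays of Agilent, each with Cy3-labelled copies of the RNA of testis tissue from male pups at postnatal day 6. In both groups the cross was Brown Norway male by Sprague Dawley female. The design text compares offspring of 5 fathers given saline with offspring of 5 fathers given BEP, for 9 weeks in each case and followed by 9 weeks of recovery, with 2 testes named. BEP is the usual short form for bleomycin, etoposide and cisplatin, a chemotherapy of testicular cancer. The fathers carry codes with C or T, and reading C as saline and T as BEP is an inference that no label states. The comparison asks whether treatment of a father before mating is followed by altered expression in the testis of the next generation. Each array is labelled with another father, so the array is the replicate (n = 5 per group). How many pups stand behind an array is not stated in the labels. Because nothing says how the RNA of each father's offspring was pooled, p-values measure the spread between these 10 samples.

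A serpin inhibits by presenting a loop that resembles a substrate. The protease cuts the loop, and the serpin then folds the cut loop into its body and drags the attached protease with it, so that both molecules are spent. The letter after the word Serpin in a symbol names the clade: clade A is secreted and resembles antitrypsin, clade B is mostly intracellular, and clades C to I include inhibitors of clotting, plasminogen activation and complement as well as members that no longer inhibit proteases. In the testis, Sertoli cells make plasminogen activators, and proteolysis is part of tubule remodelling and of the movement of germ cells through the epithelium.

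Levels are log2 processed signals minus the 75th percentile of the array, so 0 is the signal below which 75% of spots lay, and a difference of 1 is 2-fold. A level is compared only between arrays for the same probe, because probes of different genes bind with different strength. The 75th percentile lay between 1525 and 2686 intensity units. On each array between 70.4% and 74.8% of probes exceeded background clearly, 0 spots were saturated, and arrays correlated at 0.9899 to 0.9966. The arrays lay on 2 slides, with C replicates 1 to 3 and T replicates 1 and 2 on slide 1 and the other 5 on slide 2. Of the markers of testis cells, 11 of 12 Sertoli, 10 of 11 germ cell, 7 of 8 Leydig and 6 of 6 peritubular myoid genes were detected by the filter used below, which kept 76.3% of all named genes. Markers of other cells were detected as well, with 8 of 8 for duct epithelium, 7 of 7 for macrophages, 6 of 8 for endothelium and 4 of 5 for erythroid cells. On the array were 11 of the Sertoli, 10 of the germ cell, 7 of the endothelium and 4 of the erythroid markers, and all those of the other types named here. In T, 9 of the 10 detected germ cell markers, all 8 of duct epithelium and all 4 erythroid markers were higher than in C. All 6 myoid markers were lower, while 46.1% of all kept genes were higher. Markers of 1 cell type can vary together, so these directions are not independent. Averaged over a list, with each gene centred on its mean, the groups overlapped. The ranges were -0.48 to 0.45 in C and -0.70 to 0.54 in T for duct epithelium. They were -0.67 to 0.21 and 0.0075 to 0.30 for erythroid cells, and -0.076 to 0.37 and -0.12 to 0.046 for myoid cells. For germ cells they were -0.11 to 0.018 and -0.076 to 0.28. Also higher in T were 5 of 6 endothelium and 5 of 7 Leydig markers, while 8 of 11 Sertoli and 4 of 7 macrophage markers were lower. At an unadjusted p under 0.05 (limma) were 3 of the 10 germ cell markers (Piwil2, Tex101 and Mael, all higher), against 3.97% of all probes. The same held for 2 of 6 endothelium markers (Pecam1 and Flt1, both higher) and 1 of 11 Sertoli markers (Kitlg, lower). After adjustment, 0 genes of these lists passed (limma). The part of cell composition in the Serpin values was not tested. In bulk tissue, fewer cells of a type and less RNA per cell cannot be told apart.

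The array detected a minority of the family. A gene was kept when a probe was well above background on at least 5 of the 10 arrays, and 15 of 34 Serpin genes (44.1%) with 17 probes were kept, against 76.3% of all named genes. All of the kept genes except Serpina1 had a probe well above background on all 10 arrays. Serpina11 and Serpinb8 each also had a probe that failed the filter. Serpina1, which encodes antitrypsin, exceeded background clearly on 3 C arrays and on 4 T arrays. The kept genes were Serpina1, Serpina4, Serpina5 and Serpina11 of clade A, Serpinb1a, Serpinb6a, Serpinb6b, Serpinb7, Serpinb8 and Serpinb9 of clade B, Serpine2, Serpinf1, Serping1, Serpinh1 and Serpini1.

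By clade, detection was uneven, in counts too small to test. In clade A, 4 of 12 genes on the array were kept, and in clade B 6 of 13. In clade F 1 of 2 was kept, with the single genes described here of clades E, G and H, 1 of 2 in clade I, and 0 of 1 in each of clades C and D. The genes well above background on 0 arrays numbered 16. They were Serpina1f, Serpina3c, Serpina6 (corticosteroid-binding globulin), Serpina9, Serpina10, Serpina12 (vaspin) and Serpina16 of clade A, Serpinb2, Serpinb5 (maspin), Serpinb9d, Serpinb10, Serpinb11, Serpinb12 and Serpinb13 of clade B, Serpind1 (heparin cofactor II) and Serpini2. The other 3 genes below the filter, Serpina3n, Serpinc1 (antithrombin) and Serpinf2 (antiplasmin), were well above background on at least 1 array. A probe that is not well above background gives only an upper bound on its RNA.

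**Figure D1:**
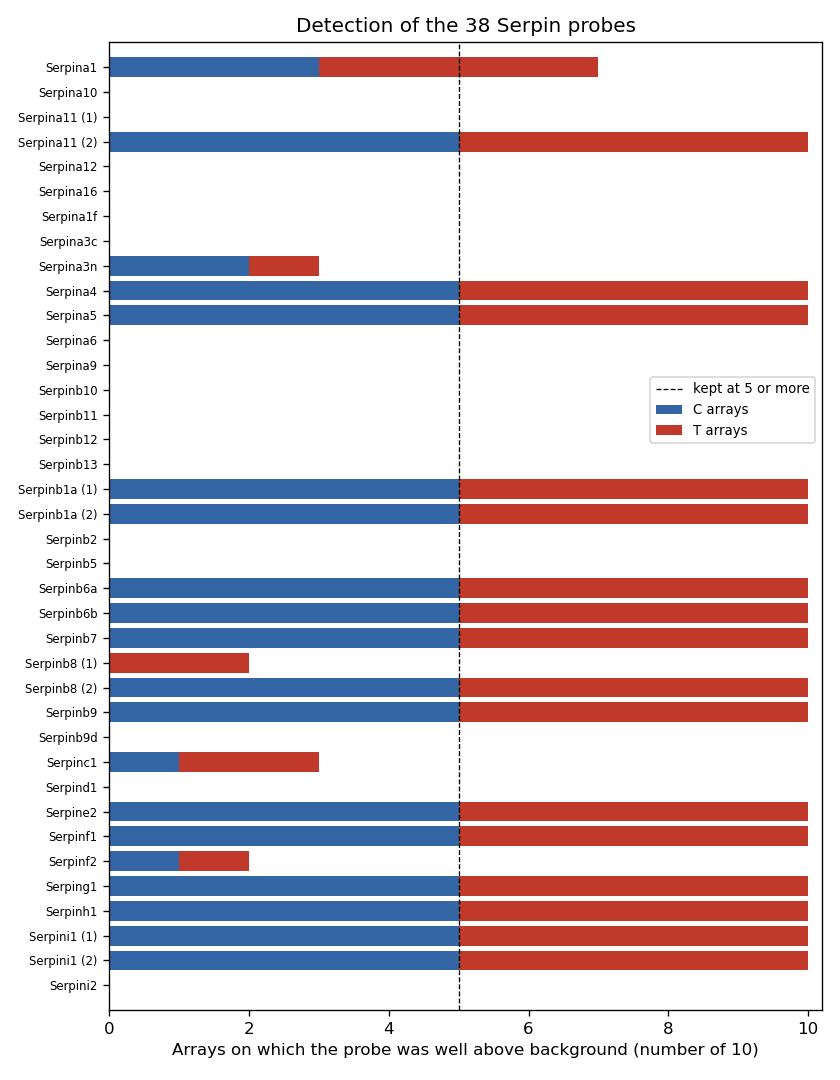
The bars give, for each of the 38 Serpin probes, the number of C and of T arrays that had the probe well above background. The dashed line marks the minimum of 5 arrays, and 14 of the 15 kept genes have a probe that reaches all 10.

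Many Serpin genes lie side by side, and the kept genes were unevenly spread over these neighbourhoods. Serpin genes separated by at most 5 other genes were joined into runs, which gave 3 runs with 5 or more genes on the array. The run from Serpina10 to Serpina3n holds 12 genes of the array, of which 4 were kept. In the clade B run from Serpinb5 to Serpinb8, 2 of 8 genes were kept, Serpinb7 and Serpinb8. In the other clade B run, from Serpinb6a to Serpinb1a, 4 of 5 were kept. Outside these 3 runs, 5 of 9 genes were kept. Clade B was therefore detected mostly from 1 of its 2 runs, a count over few genes that was not tested. Genes within a run are similar in sequence, so cross-binding of a paralog's RNA cannot be told from the named gene without the probe sequences, which were not used here.

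Promoters of kept Serpin genes held few CpG dinucleotides for genes that are expressed in this tissue. The 4 sequences that follow, each the 250 bases before the annotated start in GRCr8 from RefSeq, show the range: a CpG-rich promoter, a promoter with a paired heat shock sequence, one with a TATA sequence near the start, and one with neither CpG nor these motifs. Capitals mark every CpG in Serpine2 (chr9:88637203-88637452, minus strand), the letters GAANNTTC in Serpinh1 (chr1:163062977-163063226, minus strand) and the reverse complement of TATAAA in Serpinb7 (chr13:23910056-23910305, plus strand). Serpina5 (chr6:128787831-128788080, plus strand) has nothing in capitals.
Serpine2: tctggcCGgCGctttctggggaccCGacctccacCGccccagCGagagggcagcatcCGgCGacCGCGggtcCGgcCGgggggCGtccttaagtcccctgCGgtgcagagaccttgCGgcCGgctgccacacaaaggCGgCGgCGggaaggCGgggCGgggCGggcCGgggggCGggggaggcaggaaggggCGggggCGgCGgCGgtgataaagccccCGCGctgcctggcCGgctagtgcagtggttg
Serpinh1: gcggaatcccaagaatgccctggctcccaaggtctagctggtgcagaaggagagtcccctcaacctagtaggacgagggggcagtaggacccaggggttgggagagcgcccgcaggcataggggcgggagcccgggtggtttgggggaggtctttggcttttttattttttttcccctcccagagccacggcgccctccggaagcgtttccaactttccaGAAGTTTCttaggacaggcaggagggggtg
Serpinb7: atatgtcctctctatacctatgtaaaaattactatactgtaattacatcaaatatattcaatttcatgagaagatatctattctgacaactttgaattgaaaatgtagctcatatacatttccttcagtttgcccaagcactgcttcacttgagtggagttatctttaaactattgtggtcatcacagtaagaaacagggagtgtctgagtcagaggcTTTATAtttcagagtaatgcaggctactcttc
Serpina5: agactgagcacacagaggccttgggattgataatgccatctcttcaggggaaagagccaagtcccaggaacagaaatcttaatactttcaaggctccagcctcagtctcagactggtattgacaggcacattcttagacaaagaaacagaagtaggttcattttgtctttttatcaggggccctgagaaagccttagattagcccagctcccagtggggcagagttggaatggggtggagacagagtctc

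The Serpine2 sequence holds 30 CpG and those of Serpina5 and Serpinb7 hold 0. Serpinb6a has 23, Serpini1 14 and Serpinh1 10, and the other kept genes with a sequence have 5 or fewer. Of the 15 kept genes, 13 have a sequence in the table, and their median was 3 CpG per 250 bases. Among all 9452 kept genes with a sequence the median was 15. A count of 5 or fewer was found in 9 of 13 kept Serpin genes (69.2%) and in 19.0% of all kept genes. Serpin genes below the filter had a median of 2 (n = 14), as did all 2932 genes below the filter. The table has no sequence for Serpinb8 and Serping1 among the kept genes. Neighbouring paralogs share ancestry, so these genes are not independent and no test was made.

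Motifs were searched on both strands of the same 250 bases. The letters GAANNTTC, a minimal pair of heat shock factor units, occurred in Serpinh1 alone of the 13 kept Serpin genes, starting at position -30, and in 4.75% of the promoters of all 9452 kept genes. They also occurred in 4 of 14 Serpin genes below the filter, against 7.91% of all genes there. TATAAA was found in Serpinb7, from position -32, and in Serpinb1a, 2 of 13 kept Serpin genes, against 7.83% of all kept genes. GGGCGG, the GC box, was found in 5 of 13 kept Serpin genes (38.5%) and in 55.3% of all kept genes, with 6 matches in Serpine2 and 3 in Serpinb6a. The GC box contains a CpG, so its count and the CpG count overlap. A match describes letters only.

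**Figure D2:**
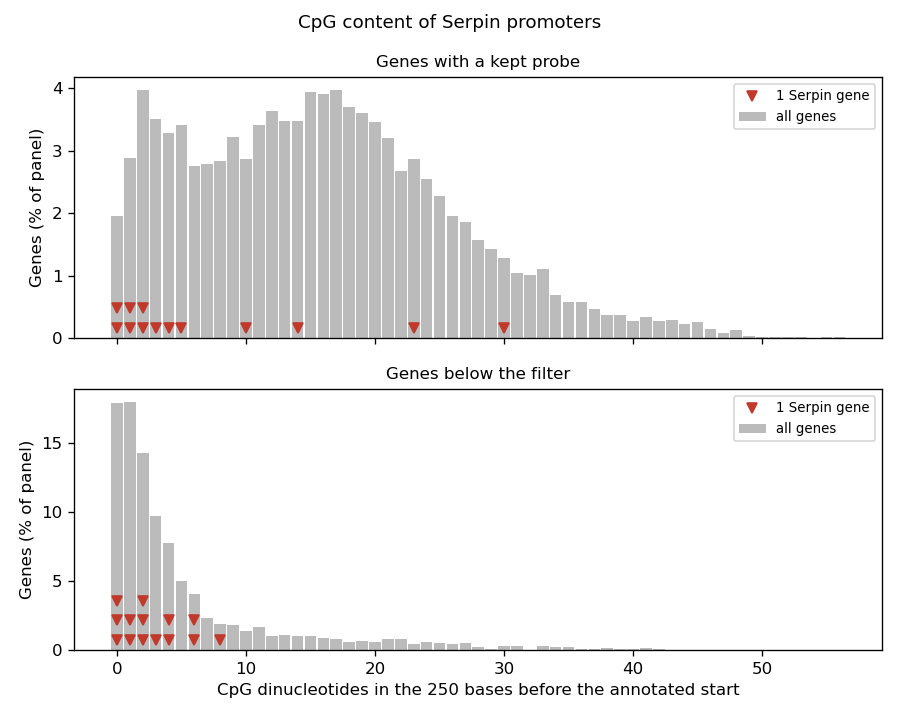
Grey bars give the percentage of genes with each number of CpG in the 250 bases before the annotated start, and each triangle is 1 Serpin gene. Kept Serpin genes (top) have a median of 3 CpG against 15 for all kept genes, and those below the filter (bottom) have a median of 2, as have all genes there.

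Between the offspring groups, 0 of 17 kept Serpin probes differed. At an adjusted p under 0.05 (limma, Benjamini-Hochberg over all 21892 kept probes), the share of all probes called was also 0%, and every Serpin probe had an adjusted p of 0.9985. At an unadjusted p under 0.05, 0 Serpin probes passed, against a background of 3.97% (869 probes). The C and T arrays did not overlap for 0 Serpin probes and for 0.722% of all probes. Of the kept genes, 7 were higher in T and 8 lower, and 46.1% of all kept genes were higher in T. The median log2 difference was -0.010 for the 15 Serpin genes and -0.0089 for all kept genes with 1 probe each. Differences ranged from -0.12 in Serpinb9 to 0.14 in Serpini1, and the widest of them corresponds to 1.10-fold. The 95% confidence intervals, taken gene by gene, left out a change of 1.5-fold in either direction for all 15 kept genes, their outermost bounds being -0.49 and 0.55. The bound of 0.55 is that of Serpina1, which was well above background on only 7 arrays. Its interval describes the signal and cannot exclude such a change in its RNA. The median SE was 0.11 for Serpin genes and 0.10 for all kept probes.

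**Figure D3:**
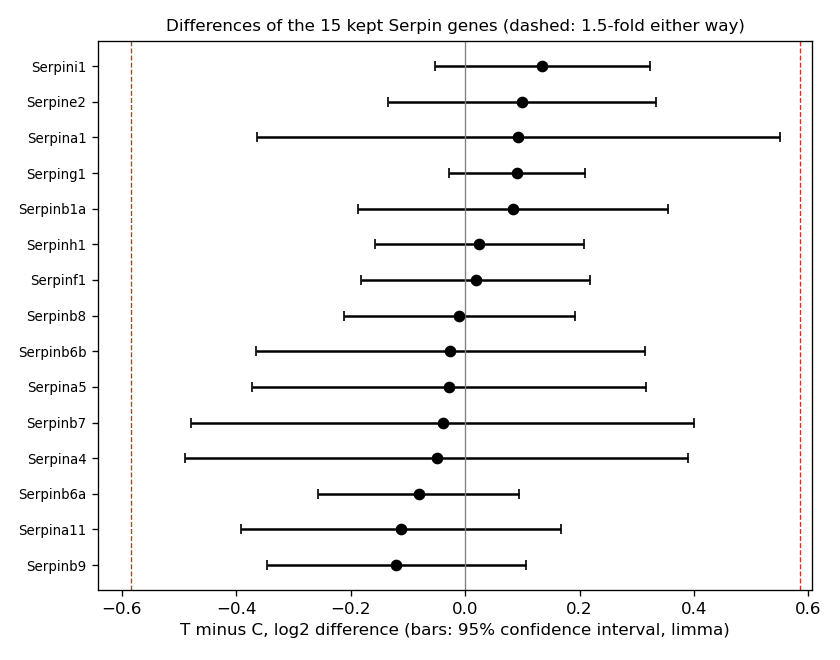
Points give T minus C on the log2 scale for each of the 15 kept Serpin genes, with 95% confidence intervals from limma, and dashed lines mark 1.5-fold. All intervals include 0 and lie inside both dashed lines. Serpina1 was well above background on only 7 arrays, so its interval describes signal and not RNA.

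Among the secreted and matrix serpins, Serpinh1 encodes HSP47, a chaperone of procollagen in the endoplasmic reticulum that does not inhibit proteases. Its levels were 3.49, 3.37, 3.48, 3.64 and 3.53 on C replicates 1 to 5 and 3.41, 3.41, 3.56, 3.50 and 3.77 on T replicates 1 to 5. T replicate 5 was the highest array, and the groups overlapped over most of their range. The means were 3.50 ± 0.10 in C and 3.53 ± 0.15 in T (SD, n = 5 each). Serpinf1 encodes pigment epithelium-derived factor, another noninhibitory member, with levels of 1.15, 0.96, 1.01, 1.32 and 0.93 on C replicates 1 to 5 and 1.17, 1.26, 0.97, 1.0 and 1.07 on T replicates 1 to 5. C replicate 4 was the highest and C replicate 5 the lowest, so both extremes lay in 1 group. The difference was 0.019 ± 0.09 (SE), with a 95% confidence interval of -0.18 to 0.22, and that of Serpinh1 was 0.025 ± 0.083 (SE), with a 95% confidence interval of -0.16 to 0.21.

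Serping1 encodes the C1 inhibitor, which blocks C1r, C1s and the contact proteases. Its spread was the smallest of the kept Serpin genes, with an SD over the 10 arrays of 0.070. Levels were 2.17, 2.13, 2.18, 2.21 and 2.10 on C replicates 1 to 5 and 2.22, 2.36, 2.25, 2.20 and 2.23 on T replicates 1 to 5. T replicate 2 was highest, and only C replicate 4 among the C arrays exceeded a T array. The difference was 0.09 ± 0.054 (SE), with a 95% confidence interval of -0.029 to 0.21 (limma, adjusted p = 0.9985 over all probes), and the interval included 0.

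Serpine2 encodes protease nexin 1, which inhibits thrombin and plasminogen activators. Its levels were -2.19, -2.46, -2.28, -2.03 and -1.98 on C replicates 1 to 5 and -2.18, -2.02, -2.24, -2.14 and -1.86 on T replicates 1 to 5. C replicate 2 was lowest and T replicate 5 highest, and the groups overlapped. The means were -2.19 ± 0.19 in C and -2.09 ± 0.15 in T (SD, n = 5 each), a difference of 0.10 ± 0.11 (SE), with a 95% confidence interval of -0.14 to 0.33.

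Serpini1 encodes neuroserpin, an inhibitor of tissue plasminogen activator, and had the widest difference of the 15 kept genes. On the brighter of its 2 probes the levels were -2.30, -2.31, -2.21, -2.43 and -2.15 on C replicates 1 to 5 and -2.29, -2.21, -2.11, -1.90 and -2.21 on T replicates 1 to 5. T replicate 4 was highest, but T replicate 1 lay below C replicates 3 and 5. The means were -2.28 ± 0.10 in C and -2.14 ± 0.15 in T (SD, n = 5 each), a difference of 0.14 ± 0.085 (SE), with a 95% confidence interval of -0.053 to 0.32 (limma, adjusted p = 0.9985 over all probes). The second probe had levels of -4.90, -5.00, -4.80, -5.00 and -4.86 on C replicates 1 to 5 and -5.19, -5.18, -4.77, -4.49 and -4.59 on T replicates 1 to 5. There T replicates 1 and 2 were the 2 lowest arrays and T replicates 3 to 5 the 3 highest. T replicates 1 and 2 lay on slide 1 and T replicates 3 to 5 on slide 2. The difference on this probe was 0.066 ± 0.14 (SE), with a 95% confidence interval of -0.24 to 0.37.

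In clade A, Serpina5 encodes protein C inhibitor, which in mice is needed for normal sperm formation. Its levels were -1.29, -1.50, -1.62, -1.20 and -1.83 on C replicates 1 to 5 and -1.10, -1.55, -1.50, -1.91 and -1.52 on T replicates 1 to 5. T replicate 1 was highest and T replicate 4 lowest, and every C array lay between them. The difference was -0.028 ± 0.16 (SE), with a 95% confidence interval of -0.37 to 0.32. Serpina1 was dim, with levels of -6.02, -6.96, -7.11, -6.53 and -6.94 on C replicates 1 to 5 and -6.54, -6.37, -7.07, -6.62 and -6.51 on T replicates 1 to 5. C replicate 1 was the highest array and C replicate 3 the lowest, and the SD over all arrays, 0.349, was the widest of the kept genes. Its difference was 0.093 ± 0.21 (SE), with a 95% confidence interval of -0.36 to 0.55.

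Serpina4 encodes kallistatin, an inhibitor of tissue kallikrein. Its levels were -4.32, -4.60, -4.78, -4.73 and -5.16 on C replicates 1 to 5 and -4.35, -4.34, -5.02, -5.05 and -5.09 on T replicates 1 to 5. C replicate 1 and T replicates 1 and 2 were highest, all 3 on slide 1. Between groups the means were -4.72 ± 0.31 in C and -4.77 ± 0.39 in T (SD, n = 5 each), a difference of -0.05 ± 0.20 (SE), with a 95% confidence interval of -0.49 to 0.39. Serpina11, the fourth kept gene of clade A, had a difference of -0.11 ± 0.13 (SE), with a 95% confidence interval of -0.39 to 0.17. Its other probe, matched through another transcript, was well above background on 0 arrays, so the 2 probes disagree on whether the gene was detected.

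In clade B, Serpinb6a and Serpinb6b are paralogs of a cytoplasmic inhibitor of trypsin-like proteases. Serpinb6a had levels of 0.46, 0.53, 0.45, 0.56 and 0.31 on C replicates 1 to 5 and 0.46, 0.35, 0.50, 0.16 and 0.43 on T replicates 1 to 5. T replicate 4 was lowest, and the remaining arrays of both groups lay within a range of 0.31 to 0.56. Its difference was -0.081 ± 0.079 (SE), with a 95% confidence interval of -0.26 to 0.095. Serpinb6b had levels of -2.06, -2.05, -2.19, -2.58 and -2.72 on C replicates 1 to 5 and -2.07, -2.17, -2.46, -2.50 and -2.53 on T replicates 1 to 5. Its 5 lowest arrays were C replicates 4 and 5 and T replicates 3 to 5, and they were the 5 arrays of slide 2. The difference between groups was -0.026 ± 0.15 (SE), with a 95% confidence interval of -0.37 to 0.31.

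Serpinb7, also called megsin, had levels of 0.41, 0.36, -0.25, 0.02 and -0.35 on C replicates 1 to 5 and 0.43, 0.31, -0.08, -0.29 and -0.38 on T replicates 1 to 5. Both groups held arrays near 0.4 and arrays below -0.2, and their ranges were nearly the same. The difference was -0.039 ± 0.20 (SE), with a 95% confidence interval of -0.48 to 0.40. Serpinb9 encodes an inhibitor of granzyme B, the killing protease of cytotoxic lymphocytes. Its levels were -2.13, -2.46, -2.43, -2.60 and -2.33 on C replicates 1 to 5 and -2.45, -2.33, -2.52, -2.49 and -2.76 on T replicates 1 to 5. C replicate 1 was highest and T replicate 5 lowest, and the other 8 arrays were mixed. The difference was -0.12 ± 0.10 (SE), with a 95% confidence interval of -0.35 to 0.11.

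Serpinb1a, an inhibitor of neutrophil elastase, and Serpinb8, an inhibitor of furin, complete the kept genes of clade B. Serpinb1a had 2 kept probes with differences of 0.084 and 0.10, each within its error. Serpinb8 had a difference of -0.01 ± 0.091 (SE), with a 95% confidence interval of -0.21 to 0.19.

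**Figure D4:**
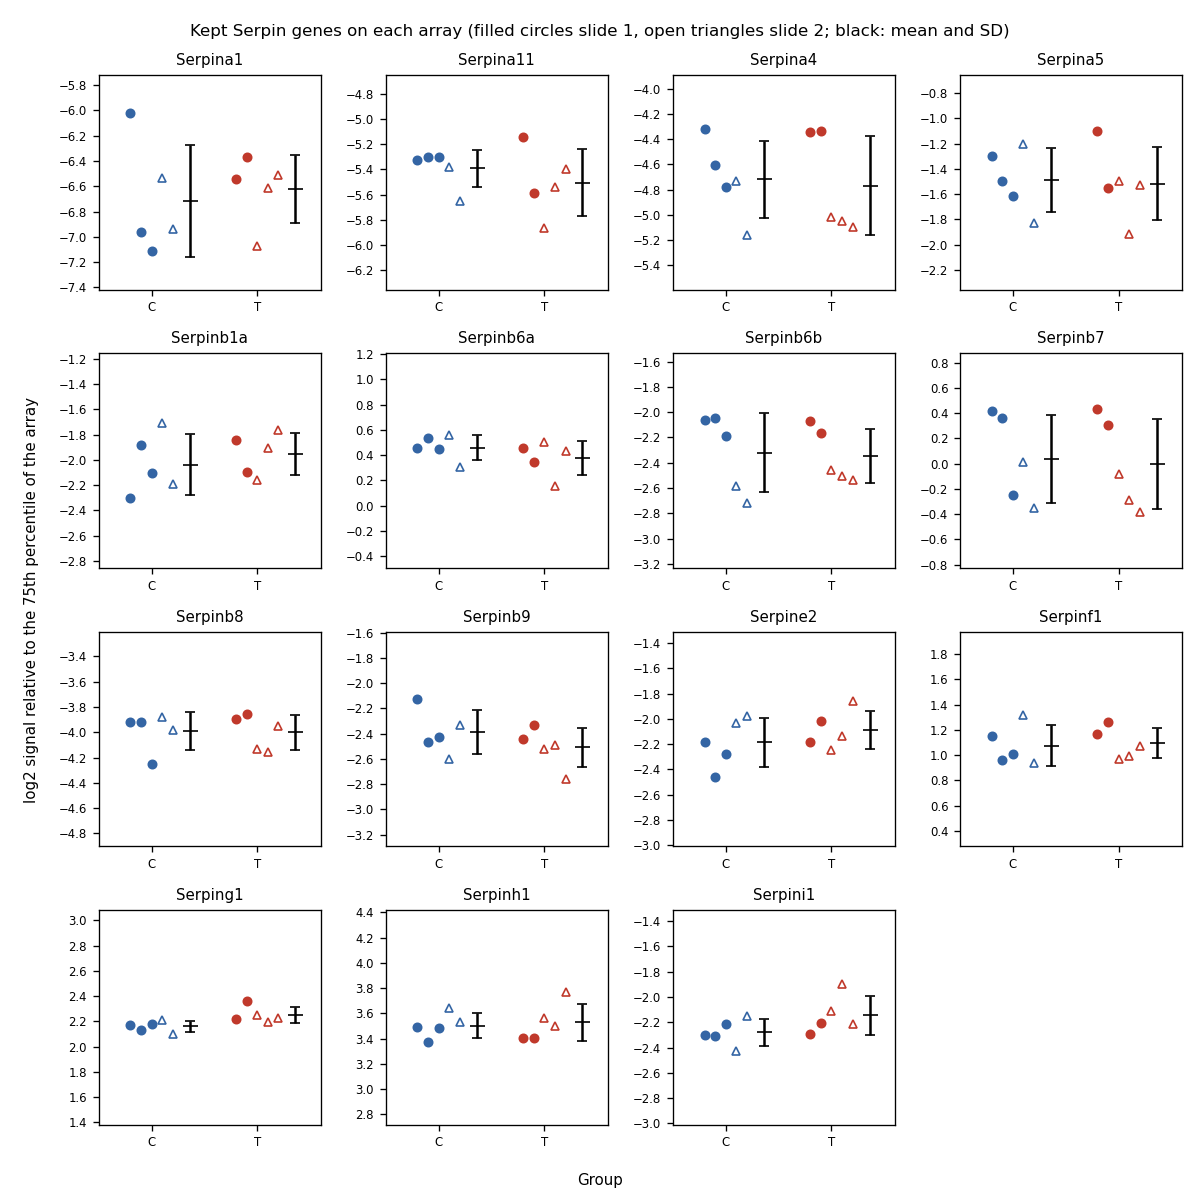
Each panel shows 1 kept Serpin gene, with the log2 level relative to the array's 75th percentile on the vertical axis, 1 point per array and the mean and SD beside each group. All panels span 1.7 log2 units, the groups overlap in every panel, and the points of Serping1 lie closest together.

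The slides separated some Serpin genes where the groups did not. With a term for group in the model, 2 of 17 Serpin probes (11.8%) differed between slides at an adjusted p under 0.05, against a background of 9.79% (2143 of 21892 probes), so the Serpin share is close to that of all probes. Serpinb6b was 1.38-fold higher on slide 1, with a log2 difference of slide 2 minus slide 1 of -0.47 ± 0.063 (SE; limma, adjusted p = 0.0011). Its mean was -2.11 ± 0.066 on slide 1 and -2.56 ± 0.10 on slide 2 (SD, n = 5 each), and the 2 slides did not overlap. Serpina4 was 1.46-fold higher on slide 1, with a difference of -0.55 ± 0.12 (SE; limma, adjusted p = 0.015). C replicate 4 on slide 2 lay above C replicate 3 on slide 1 for this gene. Serpinb7 had a difference of -0.48 ± 0.14 (SE) and did not pass (limma, adjusted p = 0.068). Serpinh1 went the other way, 0.17 ± 0.066 (SE), and did not pass either (limma, adjusted p = 0.15). Each slide held arrays of both groups, and with the slide as a term the difference between groups turned from -0.050 to 0.060 in Serpina4, from -0.026 to 0.068 in Serpinb6b and from -0.039 to 0.057 in Serpinb7. All 3 remained without a call.

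**Figure D5:**
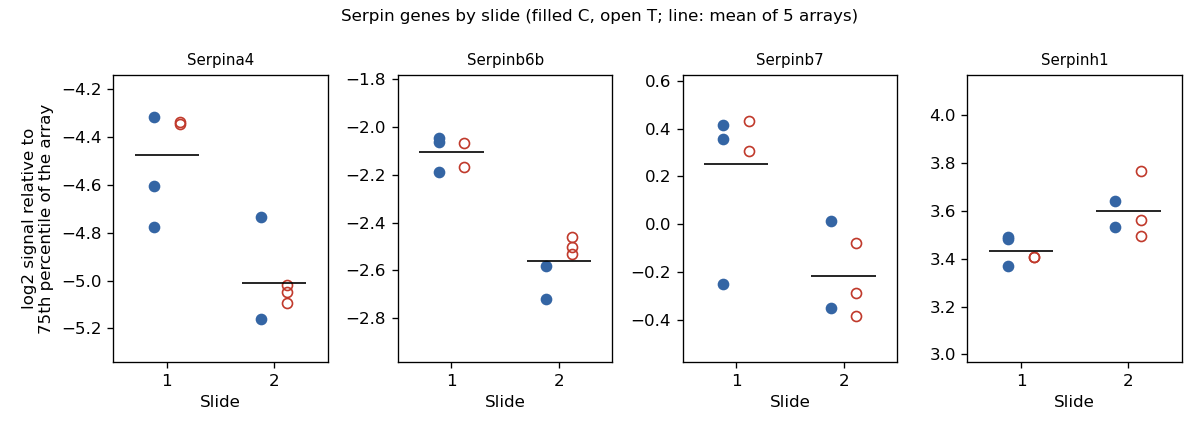
The log2 level relative to the array's 75th percentile is shown by slide for 4 Serpin genes, with filled points for C arrays, open points for T arrays and a line at the mean of each slide. The means are -2.11 on slide 1 and -2.56 on slide 2 in Serpinb6b, and -4.48 and -5.01 in Serpina4, while Serpinb7 and Serpinh1 did not pass the test.

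Serpinc1, the gene of antithrombin, stood out on a single array although it failed the filter. Its 2 spots read 109 and 97.6 intensity units on T replicate 4, and between 4.57 and 32.3 units on the other 9 arrays. The log2 level on T replicate 4 was -4.62, and the probe passed the background criterion on 1 C and on 2 T arrays. Antithrombin is a plasma protein made chiefly in liver, so a list of 8 liver plasma genes was read on the same array. Alb, Fga and Apoh were not well above background on any array, and Fgb and Ttr on 1 array each, so only 3 of the 8 could be read. On T replicate 4, Ahsg was -5.19, above its highest value on the other arrays (-5.27), while Fgg (-4.18) and Apoa1 (-6.31) lay within the range of the other arrays. The log2 of the summed linear levels of all 8 was -3.15 there, within -3.60 to -2.90 on the other arrays. The part of such RNA in the Serpinc1 value was not tested.

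Proteases, their receptors and their cofactors were read in 5 lists, 1 of them of cysteine proteases. Of 57 genes, 53 were on the array and 43 were kept, of which 22 were higher and 21 lower in T. At the adjusted threshold 0 of them passed (limma), and 1 (2.33%) had an unadjusted p under 0.05, against 3.97% of all probes. That gene, C4a of complement, was 2.69 ± 0.10 in C and 2.47 ± 0.066 in T (SD, n = 5 each), a difference of -0.21 ± 0.065 (SE). In plasminogen activation, all 10 genes were kept, with 5 in each direction and a median of 0.013. Plau, or urokinase, had a difference of 0.24 ± 0.11 (SE), and Plat, tissue plasminogen activator, 0.13 ± 0.13 (SE). In complement and contact proteases, 8 of 10 genes were kept, 1 higher and 7 lower, with a median of -0.087. C1r and C1s, which Serping1 blocks, had differences of 0.0055 ± 0.066 and -0.088 ± 0.092 (SE). Among the other proteases of that list, Masp1 had a difference of -0.14 ± 0.22 (SE), and Masp2 and Klkb1 were below the filter.

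In coagulation, 13 of 15 genes were on the array and 9 were kept, with 7 higher and 2 lower and a median of 0.089. The clotting factors F7 and F9 were below the filter. Among 15 serine proteases of the cell surface and granules, 13 were on the array and 9 were kept, 5 higher and 4 lower, with a median of 0.0063. Elane, Ctsg and Gzmb, proteases inhibited by clade B serpins, were on the array but below the filter. All 7 lysosomal cysteine proteases were kept, 4 higher and 3 lower, with a median of 0.0051. Of 16 genes of collagen biosynthesis, the pathway in which Serpinh1 works, 15 were on the array and all of these were kept. Of them 9 were higher and 6 lower, with a median of 0.017, and Col1a1 had a difference of 0.031 ± 0.12 (SE). The median over all kept genes was -0.0089. Between slides, 2 of the 43 genes of the protease lists (4.65%) were called, Plg at -0.53 and Masp1 at -0.65, against 9.79% of all probes.

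Inhibitors of other families were read in the same way. Of 34 such genes, 29 were on the array and 23 were kept, 12 higher and 11 lower in T, with a median of 0.00042. At the adjusted threshold 0 passed (limma), and 2 (8.70%) had an unadjusted p under 0.05, against 3.97% of all probes. Timp3, an inhibitor of metalloproteases bound to matrix, was -2.42 ± 0.082 in C and -2.67 ± 0.12 in T, a difference of -0.25 ± 0.071 (SE). Spink2, an acrosin inhibitor of male germ cells, had a difference of 0.18 ± 0.072 (SE). Neither passed the threshold over all probes.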

How the data were processed

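Expression in testes was measured on 10 one-colour arrays (5 C, 5 T). Per the labels' protocols, column-purified, DNase-digested RNA was amplified and labelled with Cy3. Scanner files as deposited give the intensity of each spot, background-subtracted by Agilent Feature Extraction 10.7.3.1 per the file headers (10.7 per the submitters' processing notes) and not scaled between arrays. The authors' deposited table of log2 values, centred on each probe's median, holds 21220 probes, 16 of them Serpin probes. Its scaling and filter are not given in the sources used here.

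From the intensities, log2 values minus each array's 75th percentile were computed. Control spots (4259 of 62976) were left out, outlier spots (494 to 745 per array) set missing and duplicate spots averaged. Probes well above background on at least 5 of 10 arrays were kept (21892 of 30367). Transcripts were matched without version to the RefSeq table of GRCr8, which named 17998 probes. The array design uses rn4 per the file headers of 5 arrays, so promoter coordinates are GRCr8 and none is given for probes. Where a gene had several kept probes, the one with the highest mean stood for it.

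T minus C was fitted with limma 3.58.1 in R 4.3.3 (lmFit, eBayes, two-sided, threshold 0.05 after Benjamini-Hochberg adjustment over all kept probes), and slides, read from the headers, in a second fit with group. The fit was tested on simulated data. 1 gene of the rule is not reported here and is left out of the Serpin counts. All other kept Serpin genes are named, and values on every array are given for the 5 with the smallest p, the 5 with the largest SD, any whose groups did not overlap, and a fixed panel. The members and lists were chosen with earlier results of these data known. Alternatives covered scaling, background correction, filters, slide, sire number, variance model, array weights, the authors' table and leaving out each array.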

Additional observations from a re-analysis of the deposited data

Results flagged for a closer look

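Of 34 groups of 5 arrays (17 Serpin probes, 2 groups each), 2 held an array far from the other 4, where chance gives about 1 in 20. For Serpina11, C replicate 5 lay at -5.65 below the other C arrays, with a gap of 0.779 of the group's range. For Serpinb8, C replicate 3 lay at -4.25 with a gap of 0.712.

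The second probe of Serpini1 went opposite ways on the slides: T minus C was -0.29 within slide 1 and 0.31 within slide 2, with every T array below the C arrays on slide 1 and above them on slide 2. Each reached an unadjusted p under 0.05 within its slide (limma), as 1 of the 17 Serpin probes, and neither passed after adjustment over all probes. The share of all probes at that level within a slide is not given here. A test of the difference between the slides over all probes gave an adjusted p of 0.99 for this probe (limma, interaction of group and slide), and 0 probes of the array passed it. On the brighter probe the values were 0.022 and 0.21. Each slide holds 2 arrays of one group and 3 of the other.

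Probes below the filter exceeded every C array on some T arrays where they were well above background: Serpina3n on T replicate 1 (-6.38), the second probe of Serpinb8 on T replicates 4 (-6.27) and 5 (-6.52), Serpinc1 on T replicates 4 (-4.62) and 5 (-6.29), and Serpinf2 on T replicate 5 (-6.46). Serpina3n was well above background on 2 C arrays and 1 T array, and its lowest array was T replicate 3 (-8.11). How often other probes below the filter do so is not given here.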

How the results depend on the processing

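The count of Serpin probes past the adjusted threshold was 0 under all 23 alternatives, as was the count over all probes, and the lowest adjusted p of a Serpin probe was 0.85 (limma, without T replicate 1, shared by Serpinb6a, Serpinb9, Serpine2, Serping1 and Serpini1). The unadjusted count was 0 or 1. The slide fit called 2143 probes, 2451 after quantile normalization and 2220 in the authors' values, and 2, 3 and 2 Serpin probes. Added after seeing the data, a filter of at least 1 array kept 18 Serpin genes and one of all 10 arrays kept 14. Of 275 recomputed differences of the 12 genes with values on every array, 43 turned sign, all without a call, and Serpinb6a, Serping1 and the brighter probe of Serpini1 kept their direction under every alternative run. The second probe of Serpini1 was -0.29 within slide 1 against 0.066 over all arrays. With normexp at an offset of 50, the difference was -0.0108 in Serpina1 and -0.0158 in Serpinf1. With the slide as a block, the difference was 0.0597 in Serpina4, 0.00838 in Serpina5, 0.0675 in Serpinb6b, 0.0566 in Serpinb7 and -0.00935 in Serpinh1. Within slide 1, the difference was 0.226 in Serpina4, 0.145 in Serpina5, 0.195 in Serpinb7 and -0.0397 in Serpinh1. With the sire number as a replicate block, the difference was 0.267 in Serpina4, 0.128 in Serpina5, 0.219 in Serpinb6b, 0.212 in Serpinb7, 0.0311 in Serpinb9 and -0.0557 in Serpinh1. Within slide 2, the difference was 0.152 in Serpinb6b, -0.074 in Serpine2 and -0.114 in Serpinf1. Leaving out each array in turn gave ranges of -0.0069 to 0.266 in Serpina1, -0.161 to 0.0504 in Serpina4, -0.133 to 0.0706 in Serpina5, -0.126 to 0.0427 in Serpinb6b, -0.147 to 0.0559 in Serpinb7, -0.0228 to 0.0805 in Serpinf1 and -0.0349 to 0.0596 in Serpinh1. Deviations of same-numbered arrays correlated at 0.283 for sire number 4 (both on slide 1) and 0.194 for number 6 (both on slide 2). For number 2, whose arrays lay on different slides, the value was -0.512. Whether the sire number pairs the arrays was not tested apart from the slide. Serpina1 was well above background on 7 arrays, so its value is a bound on the other 3, and it has 21 alternatives where the others have 23 or 24. Its probe drops out when all 10 arrays are required and is not used from the authors' values.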
